A study of Mus musculus with 74 samples.

Results

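Knockdown of Stag2 in undifferentiated blood progenitors was read by RNA-seq in 6 libraries, 3 with a short hairpin RNA against Stag2 (HPC shStag2) and 3 with a hairpin against luciferase (HPC Luc, the control). They were taken by their labels from the 15 RNA-seq libraries among the 74 samples of the series. All 6 came from HPC-7, a mouse haematopoietic stem and progenitor line grown with stem cell factor (SCF) at 100 ng/ul, so every library describes 1 line in culture. Both groups carried an inducible hairpin and both were given doxycycline for 72 h, which turns the hairpin on. The study set cohesin loss in these progenitors beside their erythroid differentiation. For that, Ery Luc and Ery shStag2 cells (2 libraries each) had the same 72 h of doxycycline and then 48 h of erythropoietin (EPO) at 4 U/l with SCF lowered to 20 ng/ul. HPC shRad21 cells (3 libraries) carried a hairpin against another cohesin gene, and HPC shSmc1a cells (2 libraries) one against a further cohesin gene. The word "inhibitor" stands in the title of every HPC RNA-seq library and of no Ery one, and the labels do not explain it.

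Cohesin is a ring of Smc1a, Smc3 and Rad21 to which a SA subunit, either Stag1 or Stag2, is bound. It holds sister chromatids together until mitosis, and in interphase it extrudes chromatin loops that are often anchored at CTCF sites, bringing enhancers and promoters of the same domain near each other. Stag1 carries much of the essential cohesion when Stag2 is missing, so cells can live without Stag2. In the blood system, STAG2 and other cohesin genes are recurrently mutated in myeloid malignancies, and cohesin loss is known to shift progenitors towards self-renewal and away from differentiation.

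Reads were counted per Ensembl transcript identifier. No table used here pairs these identifiers with genes, so transcripts are given by identifier, and neither the level of Stag2 itself nor the markers of the cell type were checked. Assigned counts ran from 22395582 to 31281941 in HPC Luc and from 23968631 to 33355332 in HPC shStag2, with 23054 to 24306 of 55943 identifiers read at least once per library. Ambiguous reads made up 24.2% to 26.4% of the counted total. Reads outside annotated features made up 16.2%, 16.4% and 15.1% in HPC Luc libraries 1, 2 and 3, and 17.8%, 17.9% and 15.1% in the HPC shStag2 libraries of the same numbers. The most counted identifier took 31.3%, 30.5% and 33.6% of assigned counts in HPC Luc and 25.8%, 26.8% and 33.2% in HPC shStag2. Both shares thus differed between the hairpins in libraries 1 and 2 and were alike in libraries 3. Leaving the most counted identifier out of the fit of all libraries gave 571 called transcripts, 568 of them shared with the main fit. The part of the reads outside features in the results below was not tested.

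Libraries numbered 3 stood apart from those numbered 1 and 2. On the first principal component of the 11 HPC libraries, which held 21.4% of the variance, library 3 lay 23.7 units above the mean of libraries 1 and 2 in HPC Luc, 29.99 units above in HPC shStag2 and 38.0 above in HPC shRad21. In a chi-square test of counts between HPC Luc 1 and 2, the statistic divided by its degrees of freedom was 4.96, and it was 13.7 and 17.0 between Luc 3 and either of them. For shStag2 it was 4.00 between libraries 1 and 2, and 38.8 and 35.9 against library 3. A value near 1 would be sampling noise. All 6 libraries were kept as separate replicates, although values above 1 do not show that they came from separate cultures. Luc library 3 alone differed from Luc libraries 1 and 2 at 958 of 19039 transcripts (5.03%, edgeR's quasi-likelihood test, adjusted p under 0.05), although all 3 are controls. The labels do not name this difference between library numbers, and they do not say whether libraries of 1 group came from separate cultures or carried 1 hairpin sequence or several. The number of calls and the fold changes of the named transcripts are therefore also given within libraries 1 and 2.

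**Figure D1:**
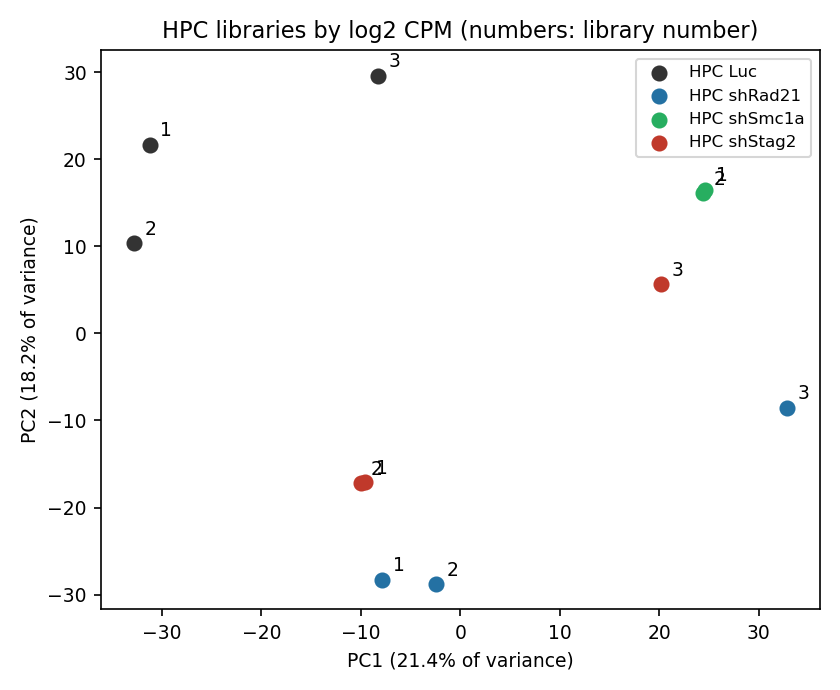
Principal components 1 (21.4% of variance) and 2 (18.2%) of log2 CPM for the 11 HPC libraries, 1 point per library, coloured by the gene the hairpin targets and labelled with the library number. Library 3 of Luc, shStag2 and shRad21 lies to the right of libraries 1 and 2 of the same group.

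The central comparison asked which transcripts changed in progenitors when Stag2 was knocked down. With all libraries, 571 of 18065 tested transcripts were called (3.16%), meaning an adjusted p under 0.05 in edgeR's quasi-likelihood test. Of these, 309 rose and 262 fell, while the median log2 fold change of all tested transcripts was -0.00011. Most changes were small. The median size among called transcripts was 0.58 on the log2 scale, with quartiles of 0.36 and 1.04, and 290 of the 571 (50.8%) changed by less than 1.5-fold. A change of at least 2-fold was called for 150 transcripts (0.83% of those tested), 61 higher and 89 lower, and a change of at least 4-fold for 33, of which 7 rose and 26 fell.

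With all libraries, called transcripts were a modest part of the RNA. Those that rose held on average 1.31% of assigned counts in HPC Luc and 1.89% in HPC shStag2. Those that fell held 3.91% and 3.21%. Their median level was 20.2 CPM (counts scaled to the library size) over the 6 libraries, against 2.99 CPM for all tested transcripts. The share called rose with the level, from 0.734% of 5589 transcripts under 1 CPM, through 3.37% of 2730 at 3 to 10 CPM, to 7.14% of 1387 at 100 CPM or more. The median size of called changes fell over the same classes, from 1.97 to 0.79 and 0.32 on the log2 scale, as did the median standard error of all tested transcripts, from 0.43 to 0.15 and 0.06. At a standard error of this size, small changes of transcripts under 1 CPM were not detectable. The share of calls that rose showed no steady trend with level. It was 41.5% under 1 CPM (17 against 24), 52.1% at 1 to 3 CPM, 67.4% at 3 to 10 CPM (62 against 30), 56.1% at 10 to 30 CPM, 53.8% at 30 to 100 CPM and 46.5% at 100 CPM or more (46 against 53).

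**Figure D2:**
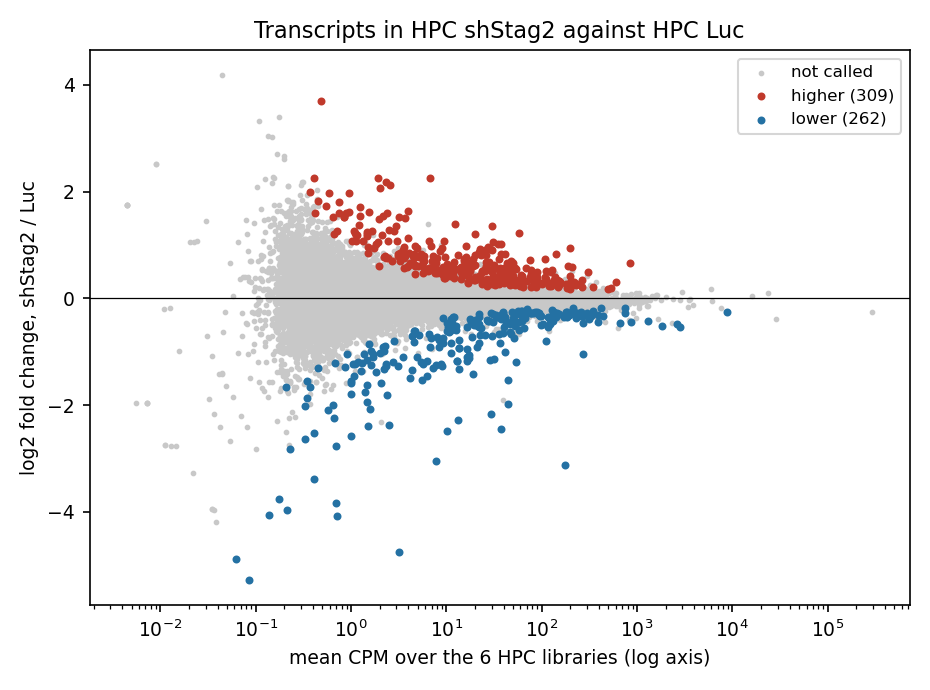
Each point is 1 of 18065 tested transcripts, with its mean CPM over the 6 HPC libraries on a log axis and its log2 fold change of shStag2 over Luc, red where called higher (309) and blue where called lower (262). The median size of called changes is 0.32 on the log2 scale at 100 CPM or more, and 26 of the 33 called changes of at least 4-fold are falls. The largest called rise and the largest called fall both average under 1 CPM.

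All 571 called transcripts had the same sign of difference in each of the 3 numbered pairs of libraries, as did 6797 of the 18065 tested. For 570 of them the levels of the 3 shStag2 libraries did not overlap those of the 3 Luc libraries. Among all tested transcripts, 1594 had every shStag2 library above every Luc library and 1595 had every one below. The calls were made from these same libraries, so both counts describe them and lend them no support. Of the transcripts called lower, 2 had 0 counts in all 3 shStag2 libraries. The number of calls depended on some libraries and on how the library sets were treated. With only these 6 libraries it was 1144 when the set (library 3 against 1 and 2) was a term of the model, and 395 when no term was added. It was 367 without Luc library 1, 341 without shStag2 library 1 and 357 without shStag2 library 2, and between 441 and 548 without any other of the 6.

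Within libraries 1 and 2 the comparison gave 1118 calls among 17151 transcripts (6.52%), 598 higher and 520 lower, with 193 of at least 2-fold, 101 higher and 92 lower. It was fitted with shRad21 libraries 1 and 2 as a further group to estimate the spread. The common biological coefficient of variation, the spread between replicates beyond counting noise, was 0.053 here and 0.09 with all 15 RNA-seq libraries. Of the 571 transcripts called with all libraries, 505 (88.4%) were also called here, all in the same direction, and they made up 45.2% of the 1118. Of the other 66, 8 were not tested within libraries 1 and 2 and 58 had the same sign. The most counted identifier, with 25.8% to 31.3% of assigned counts in these Luc and shStag2 libraries, was among the calls here. Its log2 fold change was -0.39 (edgeR adjusted p = 1.08e-09). With all libraries it was not called, at -0.25 (SE 0.12, edgeR adjusted p = 0.38). With DESeq2, 712 transcripts were called within libraries 1 and 2. Without Luc library 1, shStag2 library 1 or shStag2 library 2, edgeR called 514, 635 and 644.

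The libraries numbered 3 took no part in these calls, so their ratio of shStag2 to Luc was set beside them. It had the same sign for 935 of the 1118 transcripts, or 83.6%, where the same was true of 57.6% of all 17151 tested. Of the 598 transcripts called higher in libraries 1 and 2, 503 (84.1%) were higher in library 3, with a median log2 ratio of 0.28 beside 0.50 in libraries 1 and 2. Of the 520 called lower, 432 (83.1%) were lower in library 3, with medians of -0.26 and -0.36. For calls of at least 2-fold the medians were 0.73 beside 1.43 among 101 that rose, and -1.09 beside -1.49 among 92 that fell. At least 2-fold in the same direction in library 3 were 36 of these 101 and 49 of these 92. As each hairpin has a single library numbered 3, these ratios have no replicate check. They use a prior count of 2, which shrinks ratios of low counts, while the values for libraries 1 and 2 are fitted fold changes. The transcripts were also chosen in libraries 1 and 2. Smaller medians in library 3 therefore cannot be read as a weaker effect there.

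**Figure D3:**
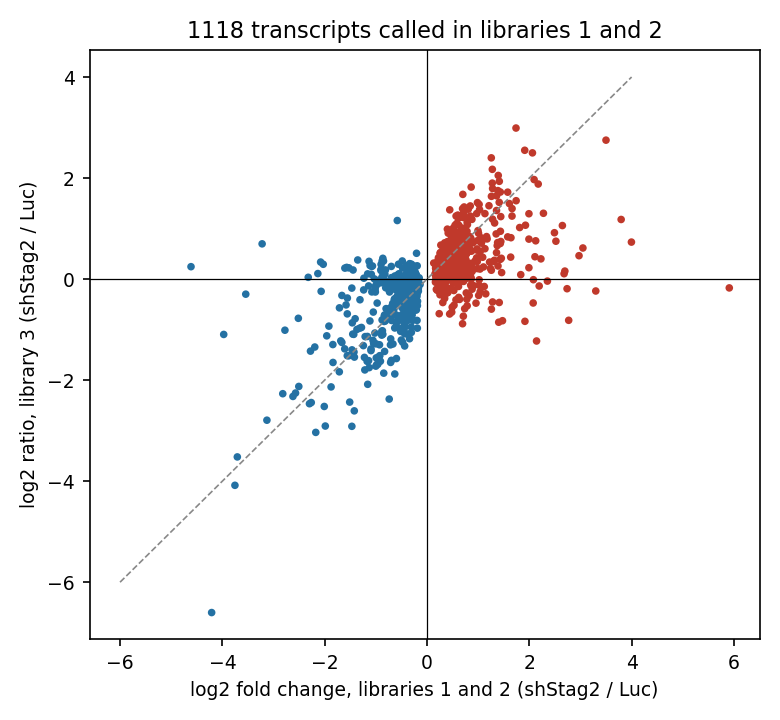
Each point is 1 of the 1118 transcripts called in libraries 1 and 2, with its fitted log2 fold change there on the horizontal axis and the log2 ratio of shStag2 library 3 to Luc library 3 (with a prior count of 2) on the vertical axis. Red points rose and blue points fell in libraries 1 and 2, the dashed line marks equal values, and 935 points keep their sign.

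Whether the knockdown effect differed between library 3 and libraries 1 and 2 was tested in a fit with a mean for each hairpin and set of libraries, a comparison added after the data had been seen. Of 19039 transcripts, 190 differed (0.998%), 76 with a more positive effect in library 3 and 114 with a more negative one. Among the transcripts called with all libraries they included 16 of the 309 that rose and 25 of the 262 that fell. Those 309 and 262 were chosen from the same libraries, so their shares cannot be read against the share over all transcripts. This test assumes that the lone libraries vary as the other groups do. Without Luc library 1, shStag2 library 1 or shStag2 library 2 it called 101, 111 and 126 transcripts.

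The transcripts with the largest changes were named by a rule, the leading 2 in each direction among called transcripts with at least 1 CPM on average and the same sign within libraries 1 and 2. ENSMUST00000100070.2 was read at 2.38, 2.35 and 2.17 CPM in HPC Luc libraries 1, 2 and 3 and at 8.58, 7.26 and 17.8 CPM in HPC shStag2. All shStag2 libraries were above all Luc libraries, and library 3 was the highest by far. The transcript rose by a log2 fold change of 2.26 (SE 0.27, edgeR adjusted p = 5.44e-05), and by 1.74 (SE 0.19) within libraries 1 and 2. Its effect in library 3 exceeded that in libraries 1 and 2 by 1.29 on the log2 scale (SE 0.31, edgeR adjusted p = 0.0248).

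ENSMUST00000149154.6 stood at 0.705, 0.912 and 0.435 CPM in HPC Luc and at 3.46, 3.32 and 2.80 CPM in HPC shStag2. The groups did not overlap, and the 3 shStag2 libraries lay close together. Its log2 fold change was 2.26 (SE 0.25, edgeR adjusted p = 2.97e-05), and 2.06 (SE 0.26) within libraries 1 and 2. The effect in library 3 differed from that in libraries 1 and 2 by 0.62 (SE 0.55, edgeR adjusted p = 0.832), which did not pass the test.

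ENSMUST00000023934.6, the larger fall, was read at 6.30, 5.26 and 7.06 CPM in HPC Luc, from 143, 121 and 211 counts. In HPC shStag2 it had 7, 14 and 0 counts, or 0.228, 0.375 and 0 CPM. In library 3 it was at least 54.6-fold lower with shStag2 than with Luc, taking 3 counts as the floor of that library. The fitted log2 fold change was -4.74 (SE 0.27, edgeR adjusted p = 6.55e-09), and -4.21 (SE 0.32) within libraries 1 and 2, where both shStag2 libraries held counts. The effect in library 3 was more negative than in libraries 1 and 2 (edgeR adjusted p = 0.0234), with a fitted difference of -6.38 (SE 1.46) whose size depends on the prior count because shStag2 library 3 was at 0.

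ENSMUST00000198477.1 was the second fall by the rule, and it rests on 1 library. It was read at 844, 60.7 and 36.6 CPM in HPC Luc libraries 1, 2 and 3 and at 35.1, 42.4 and 29.7 CPM in HPC shStag2. Luc library 1 was far above all others, and Luc library 3 lay below shStag2 library 2. It was the 1 called transcript whose groups overlapped. Its log2 fold change was -3.13 (SE 0.77, edgeR adjusted p = 0.0296) with all libraries. Without Luc library 1 the value was -0.43 (adjusted p = 0.717), which did not pass the test. Within libraries 1 and 2, where Luc library 1 is 1 of 2 controls, the value was -3.54 (SE 0.52, edgeR adjusted p = 2.57e-05). The effect in library 3 differed from that by 3.24 (SE 0.91), which did not pass (edgeR adjusted p = 0.0843).

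**Figure D4:**
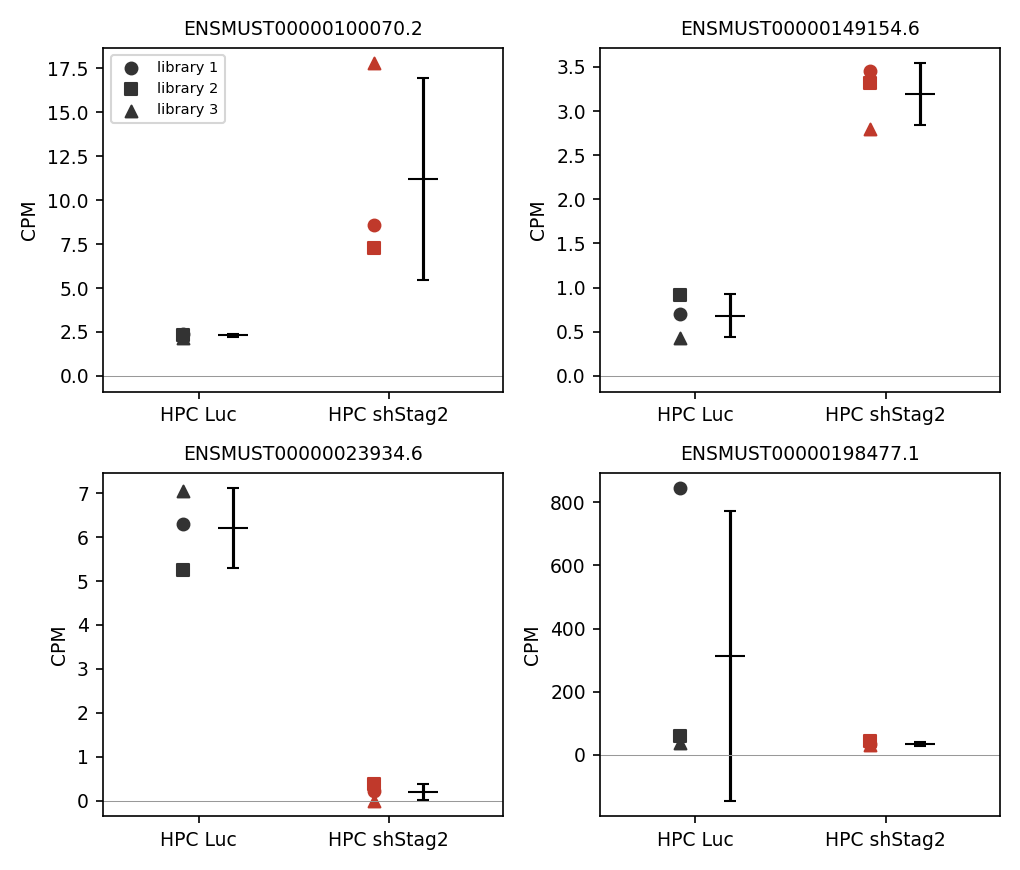
CPM of the 4 named transcripts in each HPC Luc and HPC shStag2 library, with marker shapes for the library number and a bar for the mean ± SD of 3 libraries. For 3 transcripts the groups are separate, while for ENSMUST00000198477.1 the Luc mean is set by library 1 at 844 CPM.

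Stag2 knockdown followed by EPO gave a comparison that shares no library with the one in progenitors. In Ery, 1388 of 18065 transcripts were called (7.68%), and between 660 and 678 without any 1 of the 4 Ery libraries. Of the 571 called in HPC, 296 were also called in Ery, which is 51.8% of the HPC list and 21.3% of the Ery list, and 290 of them changed in the same direction. Among the 309 that rose in HPC, 292 (94.5%) had a positive fold change in Ery, with 181 called higher and 1 lower. Among the 262 that fell, 227 (86.6%) had a negative one, with 109 called lower and 5 higher. Over all tested transcripts the sign was shared by 59.5%. The median log2 fold change of the rising transcripts was 0.58 in HPC and 0.53 in Ery, and that of the falling ones was -0.58 and -0.34. These transcripts were chosen by passing in HPC, so a smaller median in Ery cannot be read as a weaker effect there.

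**Figure D5:**
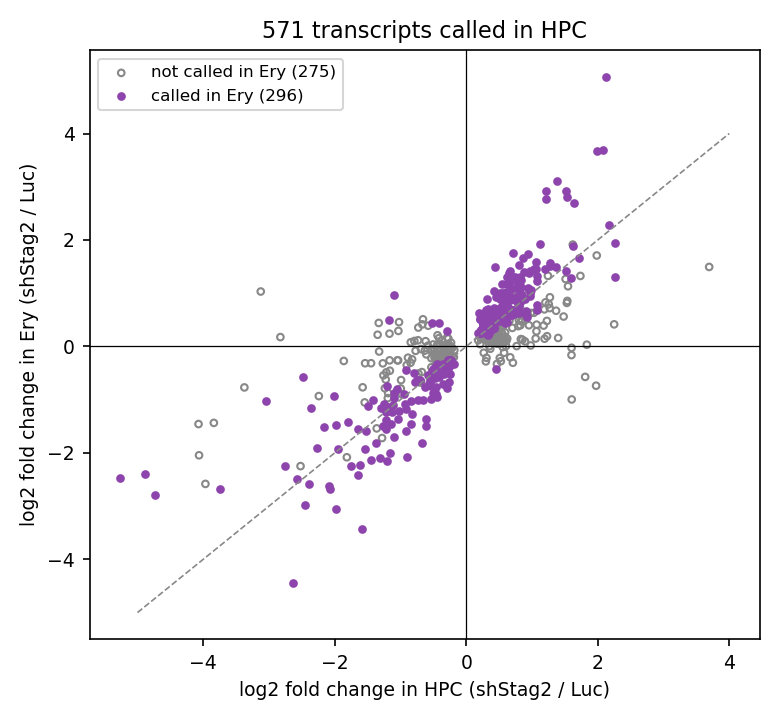
Each point is 1 of the 571 transcripts called in HPC, with its log2 fold change of shStag2 over Luc in HPC on the horizontal axis and in Ery on the vertical axis. Filled points (296) were also called in Ery, open points (275) were not, and the dashed line marks equal values.

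The difference between the effects in HPC and in Ery was called for 215 of 18065 transcripts (1.19%), among them 18 of the 309 that rose in HPC and 21 of the 262 that fell. The difference contains the HPC change by which those 309 and 262 were chosen, which can raise their share. Leaving out the HPC libraries numbered 3 raised the number called from 215 to 995. Leaving out any 1 of the 4 Ery libraries lowered it to between 64 and 72. It also fell to 121 and 123 without HPC shStag2 library 1 or 2. Stage goes with the word "inhibitor" in the titles, so the 2 cannot be told apart.

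Of the named transcripts, ENSMUST00000023934.6 was the one that passed the test of a difference in effect between stages. It was read at 1522 and 1570 CPM in Ery Luc and at 222.1 and 222.5 CPM in Ery shStag2. Both Ery groups were thus far above the HPC libraries, and the shStag2 libraries were again below the Luc libraries. Its log2 fold change in Ery was -2.80 (SE 0.14, edgeR adjusted p = 1.17e-09). The effect in HPC was different by -1.94 (SE 0.37, edgeR adjusted p = 0.0105). The HPC side of this difference rests on few counts, 7, 14 and 0 in HPC shStag2 libraries 1, 2 and 3.

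ENSMUST00000100070.2 had 4.84 and 4.82 CPM in Ery Luc and 19.2 and 17.8 CPM in Ery shStag2, a log2 fold change of 1.94 (SE 0.29, edgeR adjusted p = 0.000253). ENSMUST00000149154.6 had 0.914 and 1.49 CPM in Ery Luc and 2.75 and 3.11 CPM in Ery shStag2, a log2 fold change of 1.30 (SE 0.28, edgeR adjusted p = 0.0058). Both transcripts thus rose with Stag2 knockdown at either stage. ENSMUST00000198477.1 had 88.0 and 155.8 CPM in Ery Luc and 300.3 and 197.7 CPM in Ery shStag2. Its log2 fold change of 1.03 (SE 0.87) did not pass the test (edgeR adjusted p = 0.571). For these transcripts in order, the effect in HPC minus that in Ery was 0.33 (SE 0.40), 0.95 (SE 0.39) and -4.16 (SE 1.17). None passed (edgeR adjusted p = 0.837, 0.327 and 0.104), which does not show equal effects. The last value again leans on HPC Luc library 1.

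Rad21, a core part of the ring, was knocked down in the same cells with as many libraries. The 2 knockdowns were set against each other directly, without the shared Luc libraries. Of 18065 transcripts, 40 differed between HPC shStag2 and HPC shRad21 (0.221%), 27 higher and 13 lower with shStag2, and 1652 had an unadjusted p under 0.05. The 40 included 11 of the 309 transcripts that rose with shStag2, 8 with a higher and 3 with a lower level than in shRad21. They also included 9 of the 262 that fell, 6 with a higher and 3 with a lower level than in shRad21. The contrast contains the shStag2 libraries by which those 309 and 262 were chosen, which can affect both their share and its direction. Within libraries 1 and 2, 384 transcripts differed, 203 higher and 181 lower with shStag2. With all libraries but 1, the number was 11 without shStag2 library 1, 21 without shStag2 library 2, 16 without shRad21 library 2 and 89 without shRad21 library 3. Transcripts that did not pass are not thereby shown to respond alike.

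Against the Luc libraries that all 3 knockdowns share, the 309 rising transcripts had a median log2 fold change of 0.58 with shStag2, 0.57 with shRad21 and 0.41 with shSmc1a. The 262 falling transcripts had medians of -0.58, -0.57 and -0.39. Over all 18065 tested transcripts the medians were -0.00011, 0.006 and 0.0024. These transcripts were chosen by their difference from the same Luc libraries, so the values stand side by side only, and likeness between the knockdowns cannot be read from them. ENSMUST00000149154.6 was read at 3.65, 4.51 and 5.36 CPM in HPC shRad21 and at 3.54 and 3.06 CPM in HPC shSmc1a, all above the 3 Luc libraries. ENSMUST00000100070.2 had 6.67, 9.86 and 8.98 CPM in HPC shRad21 and 7.27 and 6.67 CPM in HPC shSmc1a, again all above Luc. ENSMUST00000023934.6 had 0.261, 0.0557 and 0.183 CPM in HPC shRad21 and 0.114 and 0.043 CPM in HPC shSmc1a, all below Luc. These low values rest on 1 to 7 counts per library. The 3 transcripts thus differed from Luc in the same direction with each knockdown. ENSMUST00000198477.1 had 54.4, 66.6 and 32.8 CPM in HPC shRad21 and 49.2 and 105.6 CPM in HPC shSmc1a, a range that overlapped Luc libraries 2 and 3. The log2 difference of shStag2 minus shRad21 was -0.48 (SE 0.19) for ENSMUST00000149154.6, which did not pass the test (edgeR adjusted p = 0.436). For ENSMUST00000100070.2, ENSMUST00000023934.6 and ENSMUST00000198477.1 it was 0.37 (SE 0.23), 0.56 (SE 0.61) and -0.52 (SE 0.74). None of these passed (edgeR adjusted p = 0.683, 0.859 and 0.9002), which does not show equal effects.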

How the data were processed

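RNA was sequenced in 15 libraries, of which the 6 of HPC Luc and HPC shStag2 are described here. The authors deposited unnormalized counts, 1 whole number for each transcript identifier and library. The submitters' processing notes name STAR 2.4.0, HTSeq and the mm10 build. How HTSeq was set, whether it used strand, and which annotation it read is not given in the sources used here, and reads of transcripts that overlap or are nearly identical may be shared or lost. The 5 rows that name no transcript were left out of library sizes, and their shares are in the report.

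Identifiers passing edgeR's filterByExpr (18065 of 55943) were scaled with TMM and fitted with edgeR 4.0.16 (R 4.3.3) by quasi-likelihood, with 1 mean for each group and all 15 libraries together. For libraries 1 and 2 the model held the 6 libraries of Luc, shStag2 and shRad21. Calls have a Benjamini-Hochberg adjusted p under 0.05. The SE is the size of the log2 fold change over the root of its F value. Ratios of single libraries use log2 CPM with a prior count of 2. The labels do not say whether libraries came from separate cultures, so the spread behind each p-value is that of these libraries alone and may be technical. Members, gene lists and tests were chosen with earlier results of these data known. Named transcripts follow the rule in the report. The planned gene lists and the check of Stag2 were not used, as no table used here joins identifiers to genes. Of the other data of the series, neither promoter interaction lists nor immunoprecipitated chromatin was used here.

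The fits were tested on simulated data drawn at the fitted trend of the spread. For shStag2 against Luc with all libraries, run on 18065 transcripts, 21 of 67 changes of 1.5-fold, 41 of 67 of 2-fold and 61 of 66 of 4-fold were recovered, with 4 false calls among 127. For libraries 1 and 2, run on 17151, these were 33 of 67, 47 of 67 and 62 of 66, with 15 false among 157. The simulation held no difference between library numbers, which the real libraries have. It also drew every transcript at the trend rather than at its own spread, and every group but HPC shStag2 at the HPC Luc mean. Alternatives were DESeq2 1.42.0, RLE size factors, no filter, fewer libraries, a replicate block and each library left out in turn.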

Additional observations from a re-analysis of the deposited data

Results flagged for a closer look

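The effect of Stag2 knockdown differed between HPC and Ery at 215 transcripts, by edgeR's test of the difference of differences. For ENSMUST00000023934.6 the log2 effect in HPC minus that in Ery was -1.94 (SE 0.37, edgeR adjusted p = 0.0105).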

How the results depend on the processing

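The number of transcripts called in HPC shStag2 against Luc, 571 as reported, was 576 with RLE size factors, 644 with DESeq2, 395 with only the 6 libraries compared and 571 without the most counted identifier, an alternative added after the data had been seen. It was 935 without a filter on low counts, where 538 of the 571 remained, but the p-values of that fit are of doubtful use. For ENSMUST00000023934.6 the edgeR adjusted p was 4.85e-129 there, beside 6.55e-09 in the main fit. The number called was 1144 with only the 6 libraries and the library set (3 against 1 and 2) as a term, where 559 remained. It was 1118 within libraries 1 and 2, and 341 to 548 with 1 library left out. With the library number as a replicate block it was 791 with only the 6 libraries, and 1215 within libraries 1 and 2. Same-numbered Luc and shStag2 libraries deviated from their group means with correlations of 0.023, 0.11 and 0.18, and 4 of the 6 libraries correlated best with their own number. The libraries numbered 1 did not, as their highest correlations, 0.025 for Luc and 0.078 for shStag2, were with libraries numbered 2. Likeness by number thus did not hold for libraries 1. The main fit held no term for the number. Among the 6 libraries such a term gave 791 calls, beside 395 without it. The 1118 calls within libraries 1 and 2 became 712 with DESeq2 and 514 to 762 with 1 library left out. The difference between HPC and Ery was called at 995 transcripts without the HPC libraries numbered 3 and at 64 to 276 with 1 library left out. The contrast of shStag2 with shRad21 gave 384 within libraries 1 and 2 and 11 to 89 with 1 library left out. The difference between library 3 and libraries 1 and 2 gave 101 to 214 with 1 library left out. The share of calls with the same sign in library 3 was 86.7% with DESeq2. Calls shared in direction by HPC and Ery numbered 609 without the HPC libraries numbered 3. The cause of these shifts was not tested.

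The number called at least 2-fold, 150, stayed within 1.5 times of itself in all 14 alternatives. The fold changes of ENSMUST00000100070.2, ENSMUST00000149154.6 and ENSMUST00000023934.6 kept their direction and passed in all 14, the fit without a filter included. ENSMUST00000198477.1 kept its direction but did not pass in 6, and DESeq2 gave it no adjusted p. Standard errors were largest for transcripts under 1 CPM, where few counts per library limit what can be called. The alternatives for gene lists were not run, as identifiers were not joined to genes.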
